A study of Mus musculus with 6 samples.

Results

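The genes of cyclic AMP (cAMP) and protein kinase A (PKA) signalling were followed in haematopoietic stem cells (HSC) from serially transplanted mice. They were chosen by name alone, whatever their values: adenylyl cyclases, the phosphodiesterase families that degrade cAMP, subunits and inhibitors of PKA, A-kinase anchoring proteins, Gnas, Creb1, Crem and the Crtc coactivators. The array held 99 such probes for 56 genes, of 39429 probes carrying 31870 gene names. The series compared HSC with and without p190-B, a GTPase-activating protein encoded by Arhgap5, after a second transplantation. Cells that were Lin-, c-Kit+, Sca-1+, CD150+ and CD48- (LSK-SLAM) were sorted from bone marrow of secondary recipients (2T) of wild-type or p190-B-/- donor cells, giving 3 arrays labelled 2T-WT and 3 labelled 2T-p190-B-/-. The label Cy3 was read in 1 colour, and each array is a separate sample.

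The donor cells of both groups came from fetal liver, since mice without p190-B die before birth, and the WT donors were littermates. They carried CD45.2 and were given with CD45.1+ competitor marrow to lethally irradiated CD45.1+ mice. Marrow of these primary recipients was passed 4 months later to irradiated CD45.1+ secondary recipients. Both groups were therefore transplanted in the same way and differed in the genotype of the donor cells, but the sample descriptions do not say that the cells for the arrays were sorted on CD45.2, so competitor and host cells may be among them. The study took the cells from 3 independent 2T mice per group on 3 occasions, and whether an array holds 1 animal or a pool is not given in the sources used here. The age of the recipients is not given there either.

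The arrays differed in depth before any gene was compared. In 2T-WT the upper quartile of the signal (its 75th percentile) reached 125, 227 and 53.9 in array order 1, 2 and 3, and in 2T-p190-B-/- it reached 385, 321 and 252. Feature Extraction called 48.4%, 66.5% and 50.6% of the probes well above background in 2T-WT and 73.1%, 53.0% and 64.2% in 2T-p190-B-/-. Array 3 of 2T-WT was thus the dimmest and array 1 of 2T-p190-B-/- the brightest. Slide 1 held 2T-WT array 1 only, slide 3 held 2T-p190-B-/- array 3 only, and slide 2 held the other 4 arrays, 2 of each genotype. All levels below are log2 of the signal divided by the 75th percentile of its array, and all differences are 2T-p190-B-/- minus 2T-WT. Arrays are listed in the order 1, 2, 3 of each group.

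The single probe of Arhgap5 did not check the genotype. It lies at chr12:53668087-53668146 (+ strand, build mm9) and read −4.74, −5.55 and −4.44 in 2T-WT and −5.46, −2.71 and −6.01 in 2T-p190-B-/-. It was detected above background in 0 of 3 samples of 2T-WT and in 1 of 2T-p190-B-/-, and the sources do not say whether it falls in the deleted part.

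The HSC label was set against its markers. Of 14 sorting and identity genes of HSC, 9 were measured. A probe counts as measured when at least 3 of the 6 arrays show it well above background. Kit, Ly6a (Sca-1), Mecom, Fgd5, Hoxb5, Tek, Tal1 and Gfi1b were among them, but Slamf1, the gene of CD150, was not, nor were Procr, Hlf, Meis1 and Gata2. Cd48, whose product the gate excludes, was well above background on all 6 arrays, at 2.02, 0.09 and −1.41 in 2T-WT and 0.38, 0.96 and 2.05 in 2T-p190-B-/-. The summed level of the HSC list was 64.0, 43.2 and 165 in 2T-WT and 42.0, 30.6 and 68.3 in 2T-p190-B-/- as multiples of the 75th percentile. Fgd5, with the brightest probe, made up most of it, and without Fgd5 the sums were 6.97, 7.58 and 31.6 against 20.7, 8.42 and 26.5. Such sums follow the brightest probes and do not rank genes by abundance. Over the list 4 genes were higher in 2T-p190-B-/- and 5 lower, with a median difference of −0.12. The B cell gene Cd79a stood at 9.47 on 2T-WT array 3 and between −4.89 and −1.65 on the other 5 arrays. The part of such differences between arrays in the results below was not tested.

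cAMP is made from ATP by adenylyl cyclases, which the stimulatory G protein alpha subunit encoded by Gnas switches on when hormones, prostaglandins or adrenergic transmitters bind their receptors. It releases the catalytic subunits of PKA from the regulatory ones, and phosphodiesterases end the signal while anchoring proteins hold PKA at particular places in the cell. Catalytic subunits that enter the nucleus phosphorylate CREB, and in blood-forming tissue prostaglandin E2 and Gs signalling through this route are known to act on HSC number and homing.

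Many of these genes could not be read on the arrays. Of the 99 probes, 52 (52.5%), for 41 genes, were measured, against 63.8% of all probes. On no array at all were 22 probes (22.2%) well above background, against 16.8% of all probes, and 29 were so on all 6 arrays. Array by array, 36, 59 and 41 of the 99 probes were detected in 2T-WT and 65, 44 and 55 in 2T-p190-B-/-. The groups overlapped in this count, and the order of the arrays was that of the share of all probes detected. All 16 phosphodiesterase genes were measured, as were both catalytic subunits of PKA, 3 of 4 regulatory subunits, 2 of 3 inhibitors, 7 of 11 genes among the cyclases and Gnas, 9 of 15 anchoring proteins and 2 of 5 genes of the CREB group.

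**Figure D1:**
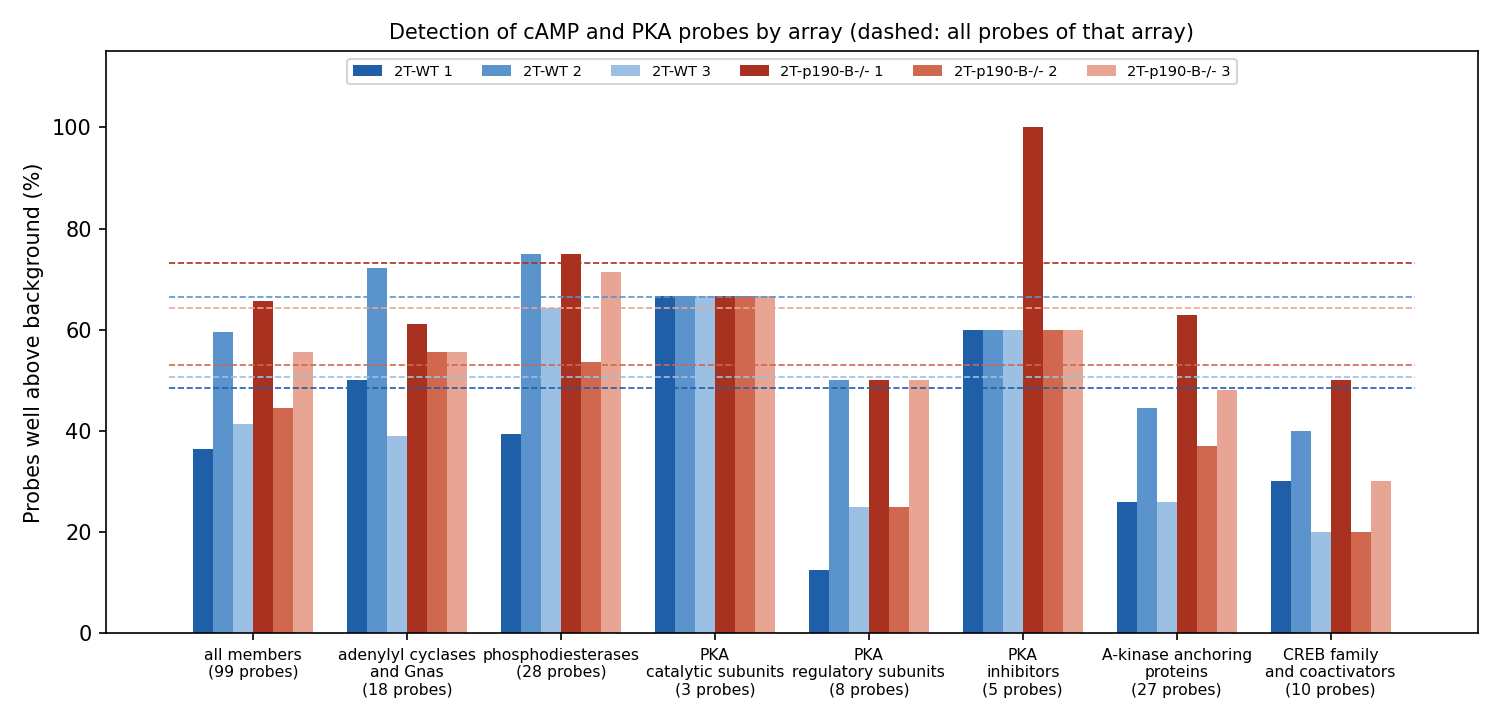
Share of probes (%) well above background on each array (blue bars, 2T-WT 1 to 3; red bars, 2T-p190-B-/- 1 to 3) for all 99 probes and for each role, with dashed lines at the share of all probes of that array. Regulatory subunits are detected at 12.5% to 50% of their probes and the CREB group at 20% to 50%, and the members as a whole lie between 36.4% and 65.7%.

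The genes not measured included the main cAMP-responsive factors. Creb1, Crem and Crtc1 were among them, with Pkia, Adcy1, Adcy2, Akap5, Akap10 and Akap11. On no array was any probe of Prkar1a, Akap8, Akap9, Akap14 or Adcy7 well above background, and every spot of the 1 probe of Adcy9 was an outlier. Prkar1a encodes the RI alpha regulatory subunit, which is made in most cells. The first 30 bases of its 2 probes are shown because they stand for a core subunit that these arrays did not detect. They lie at chr11:109529011-109529070 and chr11:109530521-109530580 (mm9, both on the + strand).
Prkar1a probe 1: gcttcttgtctctttatactaaaagttgct
Prkar1a probe 2: aaatgtacgtatgtgaatgatgtagaacgc
The G and C content of the probes differed with detection. Its median was 45% over the 52 measured probes and 35% over the 47 not measured, and over all probes it was 45% and 36.7%. Whether a gene that was not measured is silent in these cells cannot be told from its probe.

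For probes above background on some arrays of 1 group only, a bound was computed from the lowest signal well above background on each array of the other group. Most such probes had no bound. Those above background in 2T-p190-B-/- only were probes of Adcy5, Pde1c, Pkia, Pkib, Akap4, Akap5, Akap6, Akap11, Akap13, Creb1, Crtc1 and Crtc2. A further probe of Akap11 was so in 2T-WT only. The bounds below therefore do not count how often each group held such probes. Crem encodes activators and repressors that bind cAMP response elements. At 1 of its 3 probes it was detected in 2 of 3 samples of 2T-WT and in 0 of 2T-p190-B-/-. The others were detected on no array. At that probe Crem was at least 1.58-fold lower in 2T-p190-B-/-, but only at least 1.04-fold without 2T-WT array 1. Adcy1, a calcium-stimulated cyclase, was at least 1.46-fold lower there, on the basis of 1 2T-WT array, without which there was no bound, and at least 2.20-fold without 2T-WT array 1. Probes of Adcy5, Pde10a and Akap10 were at least 1.26-fold, 1.14-fold and 1.07-fold lower, each on the basis of 1 or 2 2T-WT arrays. That of Adcy5 was 2.02-fold without 2T-WT array 1, and none of the 3 had a bound without 2T-p190-B-/- array 1. Without 2T-WT array 3 there was none for Adcy5 and Akap10, and without 2T-WT array 2 none for Pde10a and Akap10. A second probe of Akap12 was at least 1.45-fold higher on the basis of 2T-p190-B-/- array 1 alone, and there was again no bound without it. Without array 3 of that group the bound was 3.07-fold. The brighter probes of Adcy5, Pde10a and Akap12 were above background on all 6 arrays, with differences of 0.65, −1.38 and 0.97. For Adcy5 the direction thus turned with the probe, and its remaining probe was above background on 2T-p190-B-/- array 2 only.

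No member passed the test across all probes. By limma, 0 of the 52 measured probes had an adjusted p under 0.05, as had 0 of all 25160 probes tested (0%), and the smallest adjusted p was 0.637 among members and 0.0721 over the array. At an unadjusted limma p under 0.05 there were 1 member probe higher in 2T-p190-B-/- (Pde4b) and 1 lower (Pkig), where 3.18% of all probes were higher and 3.39% lower. The methods' t-test gave 2 member probes at an unadjusted p under 0.05 (Akap12 and Pkig), 1783 over all probes, and 0 after adjustment. By limma the unadjusted count of members was 5 with slide as a block (1 higher and 4 lower), which is 9.62% of them against 7.41% of all probes. It was 8 with normexp (0 higher and 8 lower), 15.4% against 14.3% of all probes. Without 2T-WT array 1 or without 2T-p190-B-/- array 1 it was 4 (7.69%), against 7.54% and 4.45% of all probes. All 3 arrays of one genotype lay above all 3 of the other for 3 member probes higher in 2T-p190-B-/- and 5 lower, where 4.47% and 11.5% of all probes did so. These shares were 5.77% and 9.62% of the members, near those of the array. With normexp background correction 18 member probes did not overlap, 2 higher and 16 lower, where 3.32% and 19.9% of all probes did so. With quantile normalization there were 4 higher and 3 lower, against 5.71% and 9.28% of all probes. A difference of 2-fold or more was seen for 5 member probes higher (9.62%) and 13 lower (25.0%), against 15.9% and 27.9% of all probes.

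The median of the members was near that of the array, but single arrays moved it. The median difference over the 41 genes, each at its probe with the highest mean signal, was −0.31, and over all 21740 genes tested it was −0.35. The genes were divided into 19 higher and 22 lower, and 20 of them were under the all-gene median. Over all probes the median was −0.33, −0.11 with quantile normalization and −0.47 with normexp, so that a difference of zero depends on the scaling. For the members it was −0.057 with quantile normalization, and on slide 2 alone it was −0.69, where that of all probes was −0.47. With single arrays left out the member median ran from −0.56 (without 2T-WT array 2) to −0.031 (without 2T-p190-B-/- array 2). That of all probes ran from −0.44 (without 2T-p190-B-/- array 3) to −0.24 (without 2T-WT array 3). Fewer cells of a type and less RNA per cell cannot be told apart in such bulk samples.

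**Figure D2:**
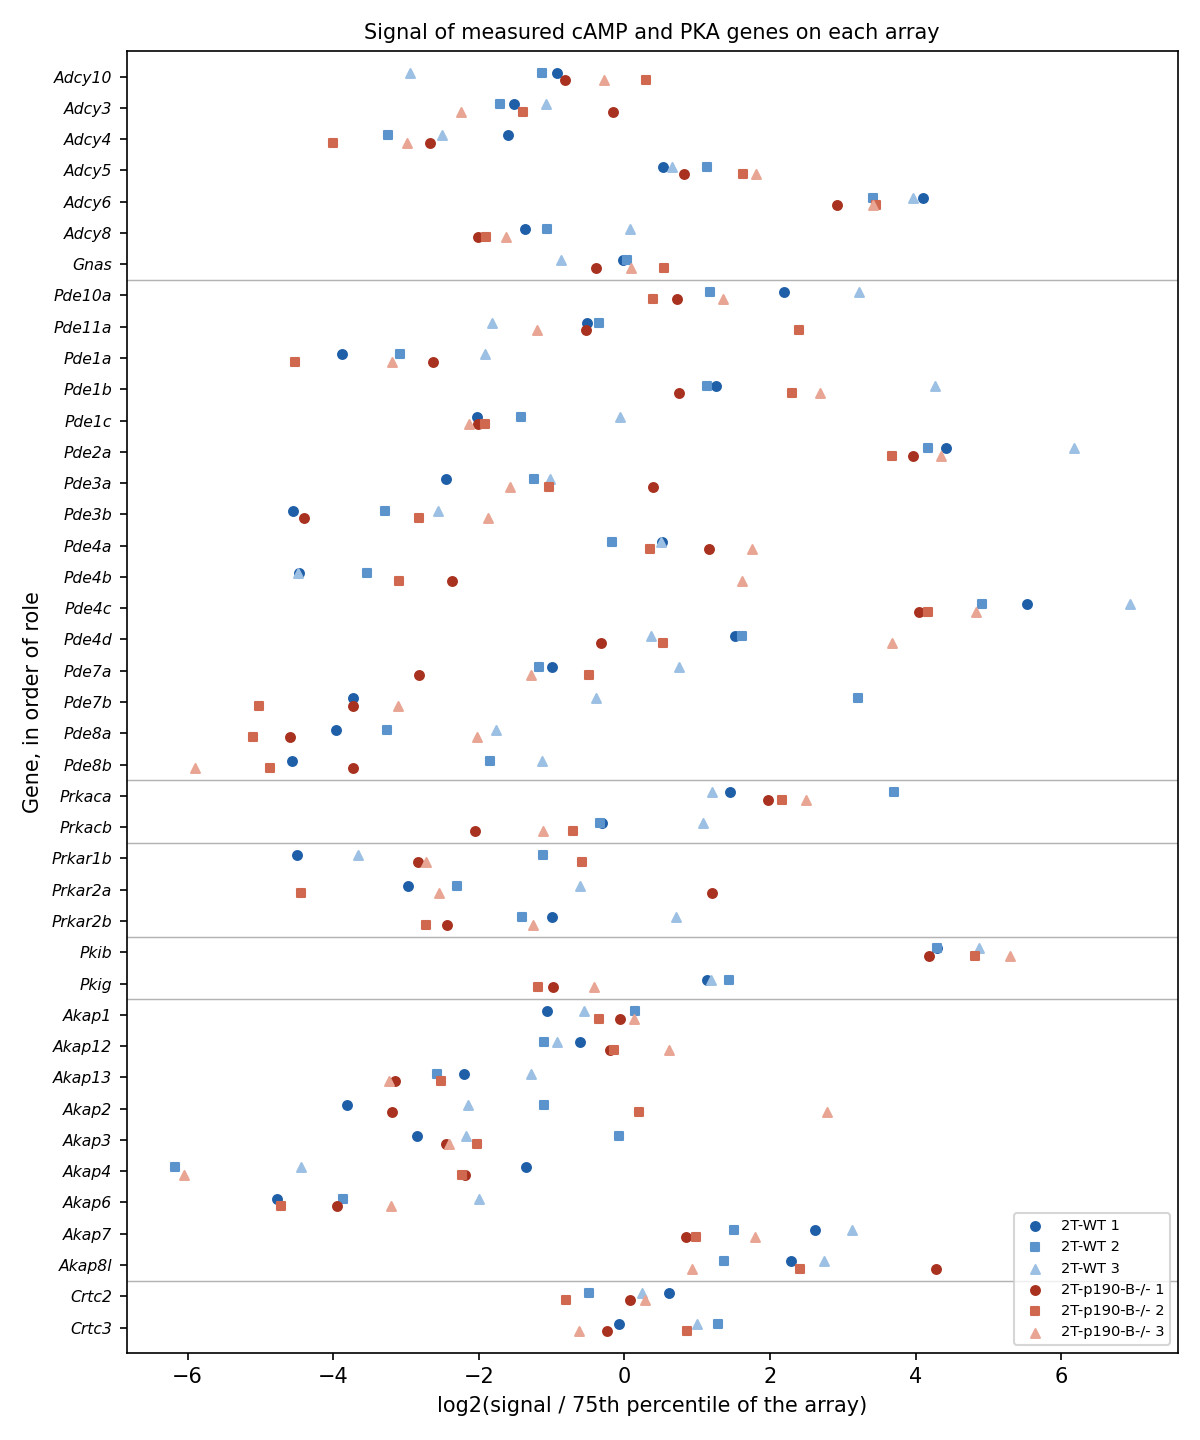
Level of each measured gene (log2 of signal over the 75th percentile of the array, x axis) on the 3 2T-WT arrays (blue) and the 3 2T-p190-B-/- arrays (red), at the probe with the highest mean signal, in order of role. Pkig shows the 2T-WT arrays at 1.14 to 1.43 and the 2T-p190-B-/- arrays at −1.19 to −0.42, with no overlap.

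The inhibitors of PKA held the member with the smallest p. Pkig encodes PKI gamma, a small protein that binds free catalytic subunits, blocks them and carries them out of the nucleus. Its 2 probes are shown by their first 30 bases because both gave a negative difference. They lie on the + strand, at chr2:163546890-163546949 and chr2:163551834-163551893 (mm9).
Pkig probe 1: atggaagtcgagtcctcttactcggacttc
Pkig probe 2: ttgtaccaagagactgatacttaggcccag
At the first probe Pkig stood at 1.14, 1.43 and 1.19 in 2T-WT and at −0.99, −1.19 and −0.42 in 2T-p190-B-/-. All 6 arrays were above background, the 2T-WT arrays were close to each other, and each of them lay above each 2T-p190-B-/- array. The means were 1.25 ± 0.16 and −0.87 ± 0.40 (SD, n = 3 each). The difference was −2.12 (SE 0.65), with an unadjusted limma p of 0.0116 and an adjusted p of 0.637 by limma. The exact two-sided permutation p was 0.1, the smallest that 3 arrays against 3 can give. In 13 of 13 alternative limma fits the unadjusted p of this probe was under 0.05, and it ranged from 0.00574 to 0.0452. The difference was −1.40 with normexp, −1.75 with the mean over both probes and −2.40 with slide as a block.

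The second Pkig probe read −2.28, 1.47 and −0.64 in 2T-WT and −2.67, −1.99 and −0.95 in 2T-p190-B-/-. Here the groups overlapped, as 2T-WT array 1 lay below 2 of the 2T-p190-B-/- arrays and array 2 far above all others. The difference was −1.39 (SE 1.05, adjusted p = 0.669 by limma).

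Pkib, which encodes PKI beta, was above background on all 6 arrays. It stood at 4.29, 4.30 and 4.87 in 2T-WT and 4.19, 4.82 and 5.30 in 2T-p190-B-/-. The ranges overlapped, with 2T-p190-B-/- array 1 below and array 3 above every 2T-WT array. The difference of 0.28 (SE 0.68) was smaller than its error. It was 1.15 with normexp, 1.11 with quantile normalization and −0.081 with slide as a block, and it ran from 0.015 (without 2T-p190-B-/- array 3) to 0.57 (without 2T-p190-B-/- array 1) with single arrays left out. Pkia, the remaining inhibitor, was above background on 2T-p190-B-/- array 1 only.

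Both catalytic subunits of PKA were measured, and neither passed the test. Prkacb encodes C beta, and its 2 probes lie close together on the − strand at chr3:146392839-146392898 and chr3:146392689-146392748 (mm9). They are shown because only the first was measured.
Prkacb probe 1: aaagaagccgtggcttatgggtattgctgt
Prkacb probe 2: ctgcttgttgtaagaatcaaatgaaataat
At probe 1 Prkacb read −0.31, −0.33 and 1.08 in 2T-WT and −2.05, −0.70 and −1.12 in 2T-p190-B-/-. Each 2T-WT array lay above each 2T-p190-B-/- array, although the gap between the nearest was small. The difference was −1.44 (SE 0.76, adjusted p = 0.637 by limma), and the exact permutation p was 0.1. Without 2T-WT array 3 it was −0.98. Probe 2 was well above background on no array.

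Prkaca, which encodes the widely expressed C alpha, stood at 1.45, 3.70 and 1.20 in 2T-WT and 1.97, 2.16 and 2.49 in 2T-p190-B-/-. The 2T-p190-B-/- arrays lay within the range of the 2T-WT arrays, of which array 2 was high. The difference was 0.089 (SE 0.85), and it was 0.34 with normexp, 0.22 with quantile normalization and −0.39 with slide as a block. With single arrays left out it ran from −0.37 (without 2T-WT array 3) to 0.88 (without 2T-WT array 2).

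Of the regulatory subunits, which hold PKA inactive until cAMP binds, 3 were measured and none passed the test. Prkar2b (RII beta) read −1.0, −1.41 and 0.71 in 2T-WT and −2.44, −2.73 and −1.25 in 2T-p190-B-/-. Only 2T-p190-B-/- array 3 reached into the 2T-WT range. The difference was −1.57 (SE 0.84, adjusted p = 0.637 by limma), and it was −0.94 without 2T-WT array 3. Another probe of the gene gave 0.23, so that the mean over probes was −0.67, and the last was well above background on no array. Prkar1b (RI beta) gave 1.05 (SE 1.08), which was 0.69 with slide as a block and turned to −0.78 with normexp. With single arrays left out it ran from 0.32 (without 2T-p190-B-/- array 2) to 2.04 (without 2T-WT array 2). Prkar1b was well above background on 1 2T-WT array and 3 2T-p190-B-/- arrays, and those 3 alone met the filter. Prkar2a (RII alpha) read −2.97, −2.30 and −0.61 in 2T-WT and 1.21, −4.44 and −2.55 in 2T-p190-B-/-. Both its highest and its lowest value were in 2T-p190-B-/-, and the difference of 0.035 (SE 1.41) ran from −1.53 without 2T-p190-B-/- array 1 to 1.29 without array 2 of that group. It was −0.25 with normexp, 0.15 with quantile normalization and −0.16 with slide as a block.

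Upstream of PKA, the cyclases and Gnas had a median difference of 0.17 over 7 genes, 4 higher and 3 lower, and −0.44 when the probes of a gene were averaged. Adcy10 encodes the soluble cyclase that bicarbonate stimulates. It read −0.92, −1.13 and −2.94 in 2T-WT and −0.82, 0.30 and −0.28 in 2T-p190-B-/-. The groups did not overlap, but 2T-p190-B-/- array 1 and 2T-WT array 1 lay side by side. The difference was 1.40 (SE 0.81, adjusted p = 0.637 by limma), 0.39 with normexp and 0.76 without 2T-WT array 3. A second probe gave −0.26, and the mean over both was 0.57.

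Adcy8, a cyclase that calcium and calmodulin stimulate, had groups that did not overlap. It stood at −1.37, −1.06 and 0.08 in 2T-WT and −2.02, −1.90 and −1.63 in 2T-p190-B-/-. All 3 2T-p190-B-/- arrays lay below the 2T-WT arrays, of which array 3 was the highest. The difference was −1.07 (SE 0.71, exact permutation p = 0.1, adjusted p = 0.640 by limma), and without that array it was −0.63. The differences of Adcy5 (0.65, SE 0.68), Adcy4 (−0.77, SE 0.77), Adcy3 (0.17, SE 0.77) and Adcy6 (−0.57, SE 0.66) were within 1 SE of 0 or close to it, and with slide as a block that of Adcy5 was 0.33 and that of Adcy4 −0.46. That of Adcy4 ran from −1.17 (without 2T-WT array 2) to −0.34 (without 2T-WT array 1) with single arrays left out. A dimmer probe of Adcy5 had a bound in the other direction, at least 1.26-fold lower in 2T-p190-B-/-, as given above.

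Gnas has several promoters and was read by 4 probes along chr2, 3 of them measured. These 3 lie at chr2:174122337-174122396, chr2:174125482-174125541 and chr2:174171933-174171992 (mm9, + strand), and they are shown in that order because they read different stretches of 1 locus.
Gnas probe 1: atgggggacattgaagggatttgctggagc
Gnas probe 2: acttcttcacccgagccttcggaagctgct
Gnas probe 3: taagagtgaaacgtaattgtacaagcagtt
Probe 1, with the highest mean signal, read −0.02, 0.03 and −0.87 in 2T-WT and −0.40, 0.55 and 0.08 in 2T-p190-B-/-, with overlapping groups and a difference of 0.36 (SE 0.69). It was 0.16 with normexp, 0.070 without 2T-WT array 3, and 0.60 and 0.13 without 2T-p190-B-/- arrays 1 and 2. Probe 2 gave −1.87, 0.69 and 0.90 against −0.69, −1.68 and −2.93, a difference of −1.67 (SE 1.00). There 2T-WT array 1 lay among the 2T-p190-B-/- arrays. Probe 3 gave a difference of −0.017. Averaged over these probes it was −0.44, so that the direction for the gene turned with the probe.
The measured probes are assigned to different transcripts of Gnas, and which of these encode the stimulatory alpha subunit was not analysed here. The probe with the highest mean signal stands for Gnas in the median of its role, so its value need not be that of this subunit.

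All 16 phosphodiesterase genes were measured, at 20 of their 28 probes. The median difference was −0.67, with 10 lower and 6 higher, and it was −0.24 with quantile normalization, −0.58 with normexp and −1.20 with slide as a block. With single arrays left out it ran from −1.07 (without 2T-WT array 1) to −0.28 (without 2T-WT array 3). The differences of single genes ran from −3.65 to 2.87, a wider span than in any other role.

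Pde4b encodes a cAMP-specific enzyme of leukocytes. It read −4.47, −3.54 and −4.48 in 2T-WT and −2.37, −3.10 and 1.61 in 2T-p190-B-/-. It was well above background on 1 2T-WT array and 2 2T-p190-B-/- arrays, and array 3 of 2T-p190-B-/- stood far above the rest. The difference was 2.87 (SE 1.23), with an unadjusted limma p of 0.0467 and an adjusted p of 0.637 by limma. Without that array it was 1.42, with slide as a block 1.27 and with normexp 0.26. The unadjusted p was under 0.05 in 4 of 12 alternative limma fits. Another probe of Pde4b was well above background on 1 array of each group, with means of −4.08 in 2T-WT and −4.33 in 2T-p190-B-/-. The remaining probe was so on no array.

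Pde7b, whose product has high affinity for cAMP, read −3.72, 3.21 and −0.39 in 2T-WT and −3.72, −5.01 and −3.11 in 2T-p190-B-/-. The value of 2T-WT array 2 was the highest by far, and 2T-WT array 1 lay within the 2T-p190-B-/- range. The difference was −3.65 (SE 1.59, adjusted p = 0.637 by limma), −1.89 without 2T-WT array 2 and −5.78 with slide as a block. Pde8b, another cAMP-specific enzyme, read −4.56, −1.85 and −1.13 against −3.73, −4.87 and −5.90, a difference of −2.32 (SE 1.06), and only 1 of the 2T-p190-B-/- arrays was above background. Again 2T-WT array 1 lay inside the other group.

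Pde4c was bright on all 6 arrays. It stood at 5.53, 4.92 and 6.94 in 2T-WT and 4.04, 4.17 and 4.83 in 2T-p190-B-/-. The groups did not overlap, though 2T-WT array 2 and 2T-p190-B-/- array 3 were close. The difference was −1.45 (SE 0.78, adjusted p = 0.637 by limma), and it was −0.41 with quantile normalization, −0.49 with normexp and −0.88 without 2T-WT array 3. Bright probes as a class had a negative median difference. Over the 1582 tested probes with a mean level above 4, the median difference was −1.10 and 26.5% were lower in 2T-p190-B-/- without overlap, against 0.053 for that median with quantile normalization. The class held 3 members, Pde4c, Pde2a and Pkib, and the difference of Pkib was 0.28. Pde2a, which cGMP activates, stood at 4.42, 4.17 and 6.18 in 2T-WT and 3.97, 3.67 and 4.35 in 2T-p190-B-/-. Its highest value was again on 2T-WT array 3, the dimmest array, and its groups overlapped. The remaining phosphodiesterases gave differences from −1.38 (Pde10a) to 1.12 (Pde11a), each with overlapping groups.

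**Figure D3:**
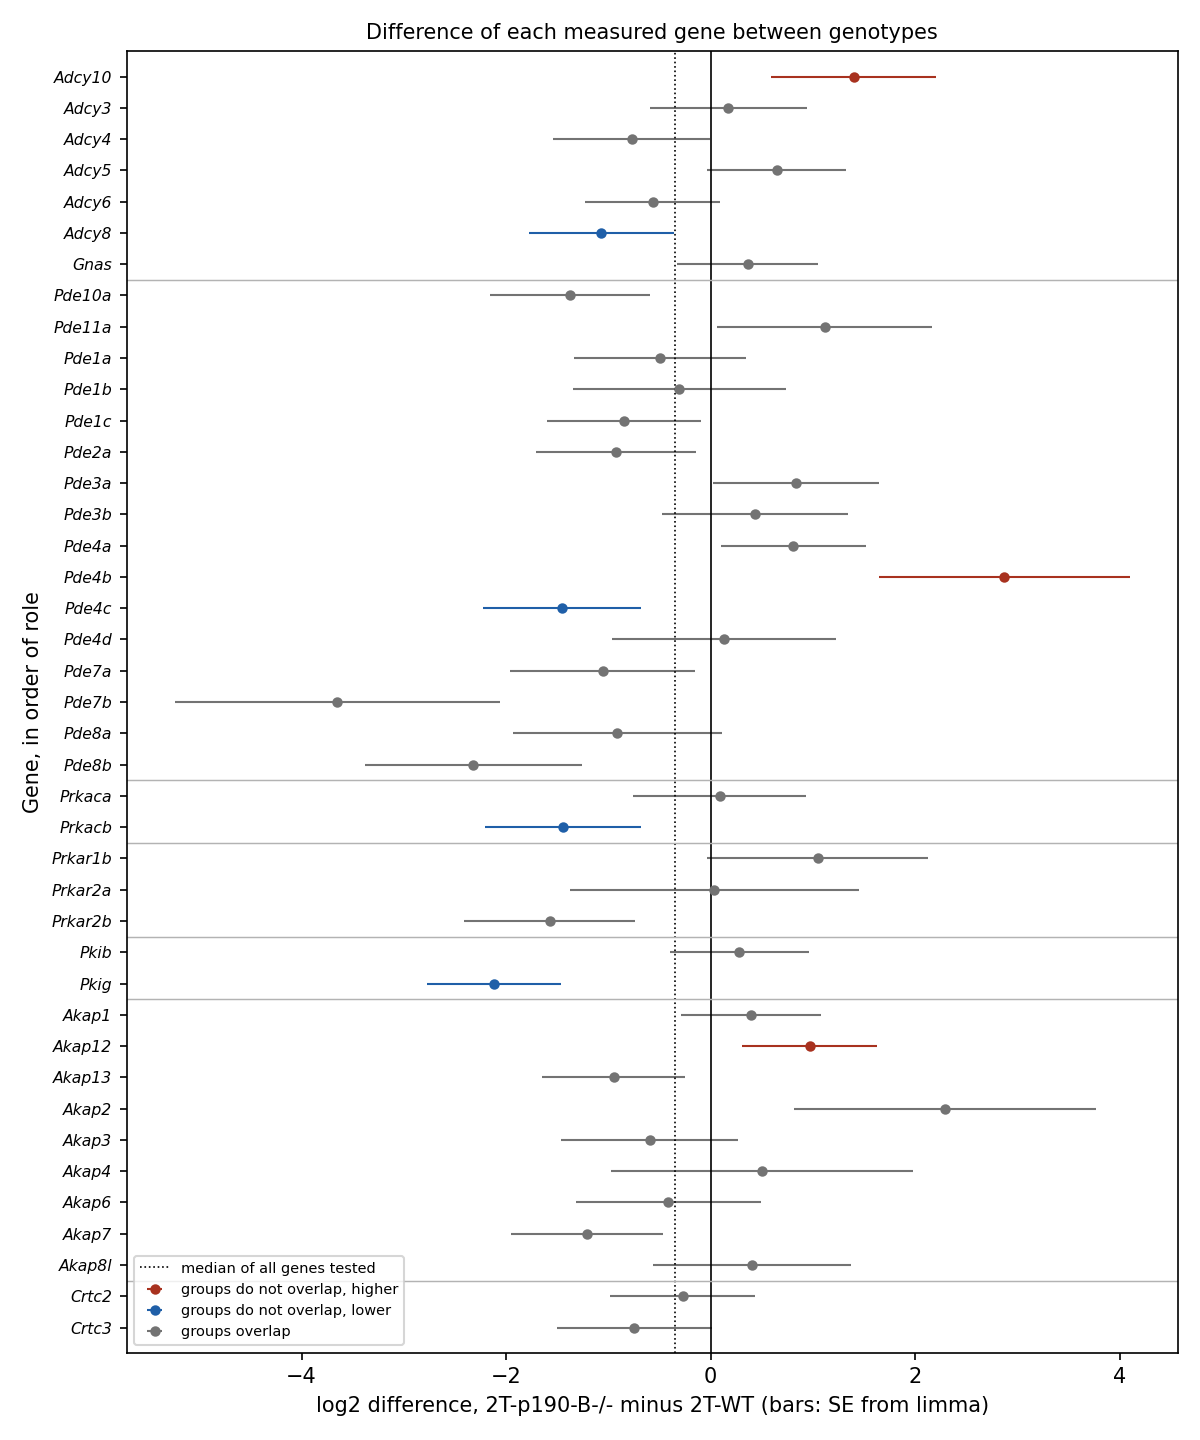
Difference between the genotypes (log2, 2T-p190-B-/- minus 2T-WT, x axis) of each measured gene at its probe with the highest mean signal, with bars for the SE from limma; red and blue mark genes whose groups do not overlap, and the dotted line is the median of all genes tested (−0.35). The genes lie on both sides of that line in most roles, and the phosphodiesterases run from −3.65 (Pde7b) to 2.87 (Pde4b, 0.26 with normexp).

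Anchoring proteins tether PKA beside its substrates. Over 9 genes their median difference was 0.40, with 5 higher and 4 lower, but it was −0.42 with normexp, −0.41 without a filter on dim probes and −0.00093 with slide as a block. With single arrays left out it ran from −0.42 (without 2T-p190-B-/- array 1) to 0.36 (without 2T-WT array 3). Akap12 (gravin), a scaffold for PKA and protein kinase C, read −0.61, −1.10 and −0.92 in 2T-WT and −0.20, −0.14 and 0.62 in 2T-p190-B-/-. Every 2T-p190-B-/- array lay above every 2T-WT array, and all 6 were above background. The difference was 0.97 (SE 0.66, exact permutation p = 0.1, adjusted p = 0.645 by limma), and it was 0.53 with normexp.

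Akap2 was read by 2 probes on the + strand of chr4, at chr4:57905932-57905991 and chr4:57907544-57907603 (mm9), shown because they gave opposite directions.
Akap2 probe 1: attaaagtgcatacaaactcaacaaccctc
Akap2 probe 2: taattaggtgccccgagtttctgaatgaga
Probe 1 read −3.82, −1.11 and −2.15 in 2T-WT and −3.20, 0.20 and 2.78 in 2T-p190-B-/-. Array 3 of 2T-p190-B-/- was the highest, and array 1 of that group lay within the 2T-WT range. Well above background were 1 2T-WT array and 3 2T-p190-B-/- arrays, and those 3 alone met the filter. The difference was 2.29 (SE 1.48), but 0.68 with normexp, 0.86 without 2T-p190-B-/- array 3, 3.85 without array 1 of that group and 0.13 with slide as a block. Probe 2 read −2.07, −2.41 and −0.60 against −3.35, −3.09 and −2.43, with no overlap and a difference of −1.26 (SE 0.77), although the nearest values of the groups nearly touched. The mean over both probes was 0.51.

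Of the other anchoring proteins, Akap7 stood at 2.62, 1.5 and 3.12 in 2T-WT and 0.84, 0.98 and 1.79 in 2T-p190-B-/-, a difference of −1.21 (SE 0.74) that was −0.42 with normexp. Only 2T-p190-B-/- array 3 passed the lowest 2T-WT array. Akap13, which is also a guanine nucleotide exchange factor, read −2.21, −2.58 and −1.28 against −3.15, −2.52 and −3.24. The groups overlapped at 1 array, and the difference was −0.95 (SE 0.70, adjusted p = 0.664 by limma). Without 2T-WT array 3 it was −0.58.

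Several genes gave a different answer at different probes. Of 30 genes with more than 1 probe, 20 had some probes measured and some not, 5 had all measured and 5 had none. At least 2 probes were measured for 9 genes, and in 6 of them (Adcy10, Akap2, Gnas, Pde11a, Pde3a and Prkar2b) the differences had opposite signs. In Akap7, Pde4a and Pkig they had the same sign.

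**Figure D4:**
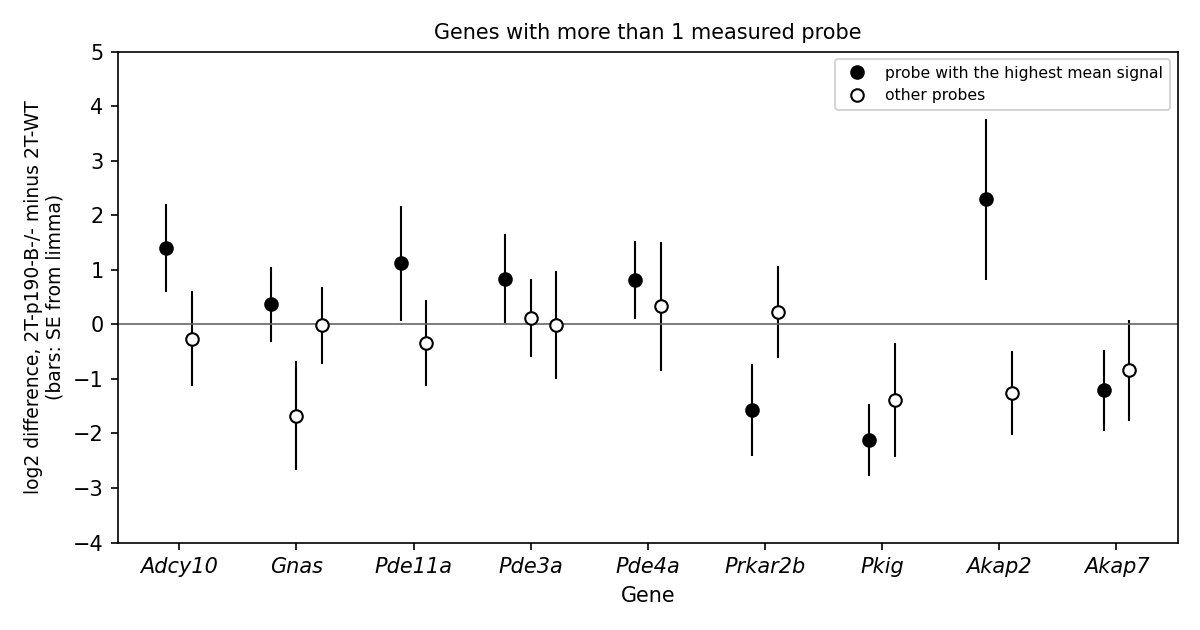
Difference between the genotypes (log2, 2T-p190-B-/- minus 2T-WT, y axis) at each measured probe of the 9 genes with more than 1, with bars for the SE from limma; filled circles are the probes with the highest mean signal. The probes of Pkig are both negative, at −2.12 and −1.39 (groups overlapping at the second), and those of Akap2 lie apart, at 2.29 (0.13 with slide as a block) and −1.26.

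The coactivators Crtc2 and Crtc3 bind CREB once dephosphorylated. Crtc2 gave a difference of −0.27 (SE 0.71), which ran from −0.58 (without 2T-WT array 2) to 0.055 (without 2T-p190-B-/- array 2) with single arrays left out. Crtc3 gave −0.74 (SE 0.76), which ran from −1.18 (without 2T-p190-B-/- array 2) to −0.43 (without array 3 of that group). Both were within the spread of the arrays.

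The promoters of the members were searched for the cAMP response element, to which CREB and Crem bind. RefSeq promoter windows of build GRCm38.p6, from 250 bases before to 50 after the start, were at hand for 47 of the 56 genes. The full element TGACGTCA, which reads the same on both strands, was in 1 of them (2.13%) and in 2.03% of all 27025 genes with a window. Its core TGACG, or CGTCA on the other strand, which the full element contains, was in 18 (38.3%) and in 23.0% of all genes. The gene with the full element was Prkar1a, in the window chr11:109650699-109650998 (+ strand), where the element, in capitals, begins 49 bases before the start. In the window of another start of the gene, chr11:109650612-109650911, it begins 38 bases after the start. Its place thus depends on the start taken, and the first window is shown.
Prkar1a promoter: cgaggcgcatTGACGTCAgcagccgaac
Prkar1a itself was not detected, so its level cannot be set beside this match.

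Other genes of the pathway were taken from a list of 81, of which 54 were measured. They comprised 20 higher and 34 lower, with a median difference of −0.40 against −0.35 for all genes. None had an adjusted limma p under 0.05, and 3 were higher (5.56%) and 3 lower (5.56%) at an unadjusted limma p under 0.05, against 3.18% and 3.39% of all probes. The groups did not overlap for 5 higher (9.26%) and 12 lower (22.2%), against 4.47% and 11.5% of all probes. Both counts of higher genes include Nr4a2, which was measured through the 2T-p190-B-/- arrays alone and so had to lie on that side. Among Gs-coupled receptors 18 of 25 were measured (median −0.27), among G proteins and their regulators 5 of 10 (−0.57), among other cAMP effectors 5 of 8 (0.42) and among partners and kinases of CREB 7 of 13 (−0.51). Hrh2, the histamine H2 receptor, read −4.07, −1.90 and −3.73 in 2T-WT and 1.12, 0.13 and −2.75 in 2T-p190-B-/-. Arrays 1 and 2 of 2T-p190-B-/- were above all others, array 3 lay within the 2T-WT range, and the difference was 2.74 (SE 1.13). Hrh2 is in the higher count by p. It was well above background on 1 2T-WT array and 3 2T-p190-B-/- arrays, and those 3 alone met the filter. Arhgef1, a guanine nucleotide exchange factor, read −4.19, −4.90 and −1.92 against 0.81, 0.45 and −3.02 at its dimmer probe, a difference of 3.08 (SE 1.24), and 0.42 (SE 0.69) at its brighter one. Its groups overlapped at both probes. The dimmer probe was also well above background on 1 2T-WT array and 3 2T-p190-B-/- arrays.

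Genes listed as carrying cAMP response elements were the list with the most genes whose groups did not overlap. Whether each of them carries the element was not checked here. Of 25 such genes 19 were measured. All 3 2T-WT arrays lay above all 3 2T-p190-B-/- arrays for 9 of them (Nr4a1, Egr1, Per1, Dusp4, Ppargc1a, Pck1, Bdnf, Ccnd1 and Cxcr4), where 11.5% of all probes did so. They lay below for 2, Junb and Nr4a2, where 4.47% of all probes did so, but Nr4a2 passed the filter through 2T-p190-B-/- alone. The median difference was −0.61, and it was −0.98 with slide as a block, −0.30 without 2T-WT array 3 and −0.34 without 2T-p190-B-/- array 1. With quantile normalization there were 7 and 2 such genes, against 9.28% and 5.71% of all probes. With normexp there were 8 and 0, against 19.9% and 3.32%. Among the 7 genes whose probes were above background on all 6 arrays there were 4 and 0, against 14.0% and 3.28%. None passed the adjusted test by limma. At an unadjusted limma p under 0.05 there were 3 lower and 2 higher, where 3.39% and 3.18% of all probes were. With normexp there were 4 and 0, against 11.8% and 2.5% of all probes. There were 0 and 1 without 2T-WT array 3 (3.28% and 2.70% of all probes) or without 2T-p190-B-/- array 1 (1.40% and 3.05%), and 0 and 2 without 2T-p190-B-/- array 2 (1.31% and 2.93%). Nr4a2 counted as measured through the 2T-p190-B-/- arrays alone, so it had to lie on the higher side, and Junb is the 1 higher gene, by overlap and by p, when Nr4a2 is left out. Of the 9 lower genes, Ppargc1a was well above background on 1 2T-WT array and 2 2T-p190-B-/- arrays, and Cxcr4 on 2 and 1. Egr1 and Ccnd1 were so on 2 and 2, and Per1 on 3 and 2. This list was looked at more closely after its counts were seen.

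The orphan nuclear receptor Nr4a2 was on the side higher in 2T-p190-B-/-, at −4.75, −5.67 and −4.45 in 2T-WT and 1.14, −2.48 and −2.27 in 2T-p190-B-/-. No 2T-WT array was well above background and all 3 2T-p190-B-/- arrays were, so that it was at least 3.44-fold higher. Without 2T-p190-B-/- array 1, the highest, the bound was 1.53-fold, and without array 2 of that group it was 5.36-fold. Its relative Nr4a1 was on the other side, at −1.63, −1.80 and −0.01 in 2T-WT and −2.65, −2.70 and −1.81 in 2T-p190-B-/-. The nearest arrays of the groups, 2T-WT array 2 and 2T-p190-B-/- array 3, differed little.

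The AP-1 gene Junb gave −1.51, −2.37 and −3.34 against 0.09, −1.20 and 0.82, a difference of 2.31 (SE 0.84). Egr1, another immediate early factor, gave −3.04, −1.99 and −2.01 against −4.71, −4.59 and −3.08, a difference of −1.78 (SE 0.77). Ccnd1, which encodes cyclin D1, read −2.70, −2.65 and −1.20 against −4.40, −4.50 and −3.37, a difference of −1.91 (SE 0.76). The phosphatase gene Dusp4 read −1.55, −0.92 and −1.02 against −3.00, −2.28 and −3.00, a difference of −1.60 (SE 0.67). For these 4 genes the adjusted p by limma was 0.637. Egr1 and Ccnd1 were each well above background on 2 2T-WT arrays and 2 2T-p190-B-/- arrays. On 2T-p190-B-/- array 2 both read under the lowest level well above background there, −2.86. Junb was well above background on 2 2T-WT arrays and 3 2T-p190-B-/- arrays, and Dusp4 on all arrays.

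**Figure D5:**
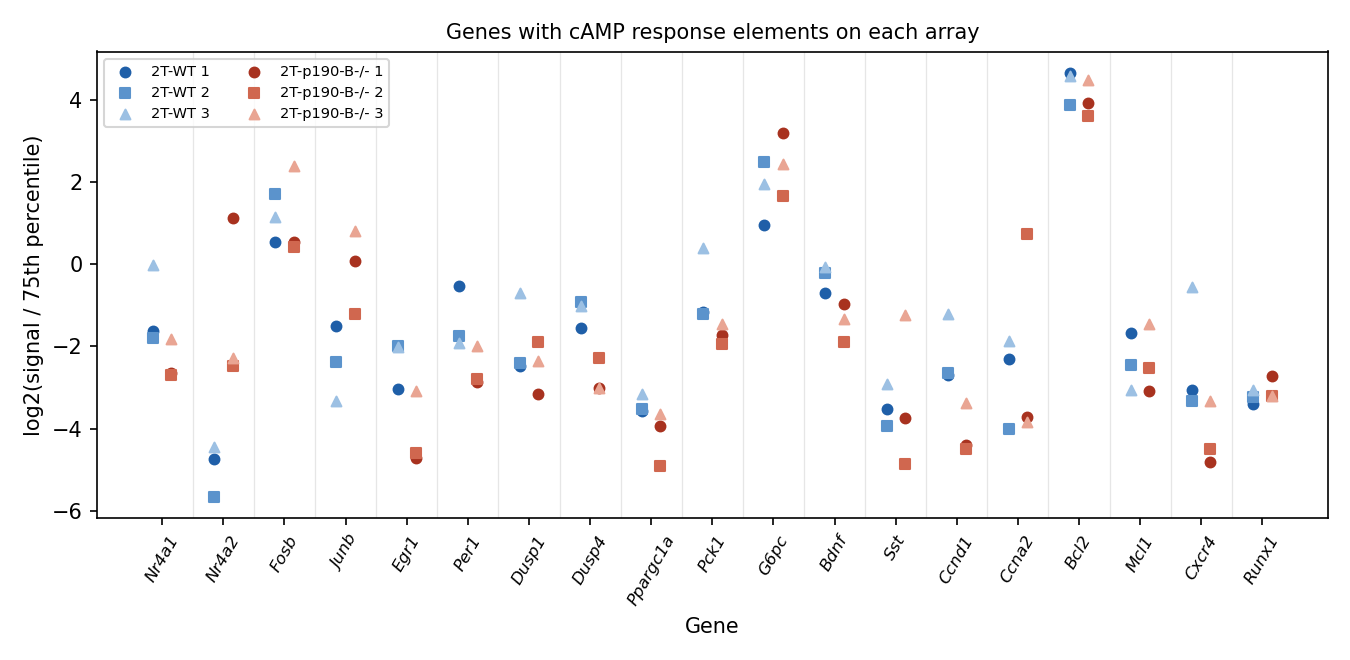
Level (log2 of signal over the 75th percentile of the array, y axis) of the 19 measured genes listed as carrying cAMP response elements, on the 3 2T-WT arrays (blue) and the 3 2T-p190-B-/- arrays (red). The groups are apart with 2T-p190-B-/- lower for 9 genes and higher for 2, Nr4a2 and Junb (8 and 0 with normexp). Nr4a2 was measured through the 2T-p190-B-/- arrays alone.

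Markers of other cells differed between the arrays too, and the gene with the brightest probe made up most of the summed level in several lists. Of 12 B cell genes 10 were measured, and they summed to 145, 128 and 1056 in 2T-WT and 82.9, 91.9 and 116 in 2T-p190-B-/-. Without Cd22, whose probe was the brightest over all arrays, the sums were 6.51, 6.37 and 727 against 7.27, 5.18 and 6.83, with Cd79a behind the high value. Of these genes 8 were lower in 2T-p190-B-/- and 2 higher (median difference −1.21). Monocyte and macrophage genes (11 of 12 measured, led by Itgam) summed to 1715, 916 and 5867 against 550, 638 and 920, and without Itgam to 77.7, 63.2 and 164 against 48.4, 47.9 and 36.0. Lyz2 and Emr1 were higher in 2T-p190-B-/- and the other 9 lower (median −0.67). Red cell genes (6 of 12) summed to 584, 325 and 986 against 223, 213 and 302, nearly all of it Ermap. Without Ermap the sums were 5.99, 4.41 and 2.23 against 5.44, 4.18 and 5.47, and 4 of the 6 genes were higher in 2T-p190-B-/- (median 0.18). T cell genes (10 of 12, led by Cd4) summed to 94.5, 49.3 and 145 against 47.8, 38.5 and 59.7, and without Cd4 to 22.8, 19.9 and 11.3 against 22.9, 15.2 and 19.3, with 4 higher and 6 lower (median −0.28). Itgam, Ermap, Cd22 and Cd4 are all in the class of probes with a mean level above 4, whose median difference was −1.10. Neutrophil genes (9 of 12, led by Lcn2) summed to 12.9, 15.4 and 7.72 against 7.46, 8.22 and 5.71, and without Lcn2 to 4.11, 9.70 and 6.34 against 5.05, 3.70 and 3.38 (median −0.61). Megakaryocyte genes (8 of 12, led by Itgb3) summed to 67.5, 73.2 and 109 against 44.9, 34.5 and 106, and without Itgb3 to 21.6, 38.8 and 24.9 against 28.8, 16.8 and 54.8 (median −0.11). Endothelial and stromal genes (8 of 12, led by Kdr) summed to 15.4, 15.5 and 17.1 against 9.39, 15.4 and 29.9 (median −0.36). Without Kdr they summed to 3.95, 2.85 and 2.99 against 1.56, 1.25 and 2.83, with each 2T-p190-B-/- array below each 2T-WT array. In that list the groups did not overlap for Emcn (difference −2.39, SE 0.74) and Sparc (−2.22, SE 0.66), with unadjusted limma p of 0.0119 and 0.00958 and an adjusted p of 0.637 for both. Cd14 of the monocyte list (−2.17, SE 0.69) and Gfi1b of the HSC list (−1.91, SE 0.76) also had groups apart, with the same adjusted p by limma. Mecom of the HSC list had groups apart with 2T-p190-B-/- higher (2.07, SE 0.93), again with that adjusted p. Groups were apart as well for Ermap, Mpo, Csf1r, Vpreb1, Cd22, Cd5, Gp1bb and Clec1b, all with 2T-p190-B-/- lower. For Slc4a1 and Treml1 they were apart with 2T-p190-B-/- higher. Of all probes, 11.5% were lower and 4.47% higher without overlap. The genes excluded by the gate (2 of 3, led by Cd48) summed to 5.26, 1.71 and 1.36 against 1.66, 2.53 and 4.50. Flt3, the other gene measured there, stood at 1.19, 0.65 and 0.98 against 0.36, 0.58 and 0.36 on that scale, with no overlap and a log2 difference of −1.11 (SE 0.67). The part of these markers in the results was not tested.

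The dimmest values set a limit to all differences of genes near background. In 2T-WT the lowest level that still counted as well above background was −2.69, −4.02 and −2.26, and in 2T-p190-B-/- it was −4.84, −2.86 and −3.78. Over the 6568 probes above background on no array, the median difference was −0.94 on the same scale. Levels of Pde7b, Pde8b and Pde4b on several arrays were in this range. So were levels of Egr1, Ccnd1, Ppargc1a and Cxcr4 on some arrays.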

How the data were processed

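RNA of LSK-SLAM cells was amplified, labelled with Cy3 and hybridized by a service provider to 1-colour Agilent whole mouse arrays, 1 per sample. The deposited scanner files hold spot intensity values from Feature Extraction 10.5.1.1, of which the processed signal, from which the authors' software had subtracted background, was used. The deposited series table holds linear signal ratios, which per array were the processed signal divided by a constant close to its median.

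Control and outlier spots were left out and repeated spots of a probe were averaged. Log2 processed signal minus the log2 of the 75th percentile of its array was fitted with limma 3.58.1 in R 4.3.3 (lmFit and eBayes) over 25160 probes well above background on at least 3 arrays, with Benjamini-Hochberg adjustment over all of them. Tables were made with Python 3.11.15 and pandas 2.3.3. For a gene with several probes the probe with the highest mean signal stood for it. A bound ("at least N-fold") sets the mean log2 level of the brighter group over all its arrays against the mean, in the other, of the higher of the probe's level and the lowest level well above background of each array. The number of arrays limits the precision. The fit was tested on simulated data over 24873 probes for the comparison of 2T-p190-B-/- with 2T-WT: of the probes given a log2 change of 2 it called 0 of 67, of those given 4 it called 3 of 67, and of those given 6 it called 25 of 66, and it made 0 false calls.

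Members were selected by the gene names of the files. For lists and counts of genes, 26412 probes took their gene from an accession in the RefSeq table of GRCm38.p6, another 3854 carried a symbol of that table, and 9163 were left as the files name them. Probe positions are those of the files (mm9), and whether a probe lies in an exon or UTR was not analysed here.

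Named genes were Gnas, the PKA subunits and inhibitors, Creb1, Crem and Crtc1 to Crtc3, the 4 measured genes with the smallest limma p in each of the Adcy, Pde and Akap families, any other member with a 2-fold difference and an unadjusted p under 0.05 or with groups that did not overlap, and members whose probes differed in sign by more than 2. Genes of the other lists were named where a probe differed 2-fold with an unadjusted p under 0.05. Adcy3, Adcy6, Pde2a, Pde10a, Pde11a, Cd48, Cd79a, Flt3, Lyz2, Emr1, Mecom, Nr4a1, Per1, Ppargc1a, Pck1, Bdnf and Cxcr4, and the class of bright probes, were added after their values were seen. So were Csf1r, Vpreb1, Cd5, Gp1bb, Clec1b, Slc4a1 and Treml1. The members and lists were chosen with earlier results of these data known. The study does not say that each array is 1 animal, so p-values measure the spread between these samples, which may be technical in part.

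The fits were repeated with normexp (offset 50) in place of the processed signal, with quantile normalization, without the filter or with a filter on all 6 arrays, and from the series table, and further with slide or replicate number as a block, slide 2 alone, an intensity trend with robust variance, the methods' t-test, the mean over a gene's probes and each array left out in turn. The series table gave the same p-values as the processed signal and slide 2 alone the same as the slide block, so neither was counted as a further limma fit.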

Additional observations from a re-analysis of the deposited data

How the results depend on the processing

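No alternative gave a probe with an adjusted p under 0.05, by limma or by the methods' t-test. Member probes with an unadjusted p under 0.05 (2) numbered 6 of 98 without a filter on dim probes (6.12%, against 5.63% of all probes), 8 with normexp (15.4% against 14.3%), 5 with slide as a block and within slide 2 (9.62% against 7.41%), 1 with the filter on all 6 arrays (3.45% against 7.24%), 1 with intensity trend and robust variance (1.92% against 6.84%), and 1 to 4 when single arrays were left out (4 without 2T-WT array 1 and without 2T-p190-B-/- array 1). With replicate number as a block the count was 1 (1.92% against 7.45%). Same-numbered arrays did not deviate together (correlations of 0.009, 0.016 and 0.086 over probes), so the numbers were not taken to pair the arrays, and the block changed no adjusted call. Member probes whose groups did not overlap (8) numbered 14 without a filter (14.3%, against 14.8% of all probes), 18 with normexp (34.6% against 23.2%), 5 with the filter on all 6 arrays (17.2% against 17.3%), 23 within slide 2, where 2 arrays stand against 2 (44.2% against 45.7%), and 8 to 20 when single arrays were left out (15.4% to 38.5%, against 22.9% to 32.3% of all probes). This count does not depend on the blocks, the variance model or the t-test and was not recomputed for them. The member median (−0.31) was −0.057 with quantile normalization, −0.69 with slide as a block and within slide 2, and −0.56 (without 2T-WT array 2) to −0.031 (without 2T-p190-B-/- array 2) when single arrays were left out.

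By role, the cyclases and Gnas were at −0.34 without a filter, −0.44 with the mean over probes and −0.38 to 0.36 with single arrays left out, phosphodiesterases at −1.20 with slide as a block and within slide 2, inhibitors at 0.28 without a filter, −0.13 with normexp and −0.49 with quantile normalization, and the CREB group at −0.70 without a filter and −0.36 with normexp. Regulatory subunits ran from −1.42 (without 2T-p190-B-/- array 1) to 0.71.

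Of 22 named genes with a value, 16 kept their direction in the alternatives that gave them one. The filter on all 6 arrays gave none for 9 of the 22 (Prkar1b, Prkar2a, Prkar2b, Adcy4, Adcy10, Pde4b, Pde7b, Pde8b and Akap2). Prkar1b was −0.78 with normexp. Prkar2a was −0.25 with normexp, −0.16 with slide as a block and within slide 2, and −1.53 to 1.29 with single arrays left out. Prkaca was −0.39 with slide as a block and within slide 2, and −0.37 to 0.88 with single arrays left out. Pkib was −0.081 with slide as a block and within slide 2, Crtc2 ran from −0.58 to 0.055 with single arrays left out, and Gnas was −0.44 with the mean over probes. The genes listed as carrying cAMP response elements whose groups did not overlap (11) numbered 4 of 7 with the filter on all 6 arrays. The alternatives of that list, those of the bounds and slide 2 alone were chosen after seeing the data. The fewer probes of the stricter filter lower its counts by construction, and for the other alternatives the cause was not tested. Signal near background limits Pde4b, Pde7b and Pde8b, and in the list with cAMP response elements Egr1, Ccnd1, Ppargc1a and Cxcr4.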
